A study of Mus musculus with 12 samples.

Results

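The genes described here end the photoresponse and set it back by calcium feedback. They were chosen by gene symbol and number 10 of the 37991 genes in the tables: *Gucy2e*, *Guca1a*, *Guca1b*, *Grk1*, *Rcvrn*, *Rgs9*, *Rgs9bp*, *Gnb5*, *Slc24a1* and *Pdc*. Retinas of male mice aged 8 weeks were sequenced as polyadenylated mRNA in 12 libraries, 3 for each of 4 classes, and each library was a pool of 6 to 8 retinas. F0 C57BL/6J is the standard laboratory strain and F0 Cast/EiJ a wild-derived inbred strain, while the F1 hybrids came from reciprocal crosses. Mothers were Cast/EiJ for F1 B6xCast and C57BL/6J for F1 CastxB6. No class carried a treatment or an engineered allele. In a whole retina, fewer photoreceptors and less RNA per photoreceptor cannot be told apart.

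Light closes the cation channels of a rod by lowering its cyclic GMP, and calcium in the outer segment falls with it. Recovery has several arms. Retinal guanylate cyclase makes new cyclic GMP once its activating proteins sense low calcium, a kinase phosphorylates the active visual pigment and is released from recoverin as calcium drops, and a complex around RGS9 speeds the GTPase of transducin. A sodium, calcium and potassium exchanger carries calcium out of the outer segment, and phosducin binds the beta and gamma subunits of transducin. In the mouse retina, rods far outnumber cones.

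Promoter sequences, the 250 bases before and 50 bases after the RefSeq start site in GRCm38.p6, were found for 7 of the 10 genes. They were searched on both strands for TAATCC, the core that the photoreceptor factor CRX prefers, and for TGCTGA, found in sites of the rod factor NRL; these letters do not overlap. TAATCC was in 3 of the 7, against 7.06% of 32851 promoters of the same length, and TGCTGA was in 2 of the 7 (*Grk1* and *Rgs9*), against 19.5%. The 3 promoters with TAATCC are given below with that of *Pdc*, the most abundant of the genes, in which neither motif was found. Capitals mark the match, which reads GGATTA because it lies on the other strand in each case, and it begins 57 bases before the start site in *Guca1a*, 42 in *Gucy2e* and 6 in *Gnb5*. The windows are chr17:47400557-47400856 (minus strand), chr11:69236973-69237272 (minus strand), chr9:75306038-75306337 (plus strand) and chr1:150319167-150319466 (plus strand). Such a match is a description of the letters and not a shown binding site.
Guca1a promoter: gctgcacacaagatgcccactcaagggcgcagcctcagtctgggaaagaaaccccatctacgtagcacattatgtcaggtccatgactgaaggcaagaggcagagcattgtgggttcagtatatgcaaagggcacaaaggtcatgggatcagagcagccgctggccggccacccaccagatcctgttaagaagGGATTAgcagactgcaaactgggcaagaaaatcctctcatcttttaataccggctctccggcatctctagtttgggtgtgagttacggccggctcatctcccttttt
Gucy2e promoter: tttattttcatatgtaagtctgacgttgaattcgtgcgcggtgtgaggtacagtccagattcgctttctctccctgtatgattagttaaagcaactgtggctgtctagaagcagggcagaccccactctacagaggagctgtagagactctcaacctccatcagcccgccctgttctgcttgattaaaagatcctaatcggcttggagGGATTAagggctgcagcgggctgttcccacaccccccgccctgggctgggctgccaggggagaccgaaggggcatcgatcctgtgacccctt
Gnb5 promoter: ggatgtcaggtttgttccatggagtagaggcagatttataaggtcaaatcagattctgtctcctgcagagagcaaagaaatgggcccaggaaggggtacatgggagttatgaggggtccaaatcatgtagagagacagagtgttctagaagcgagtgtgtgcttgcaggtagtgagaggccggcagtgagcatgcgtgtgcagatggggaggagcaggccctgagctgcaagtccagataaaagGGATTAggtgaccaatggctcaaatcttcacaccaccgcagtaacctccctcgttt
Pdc promoter: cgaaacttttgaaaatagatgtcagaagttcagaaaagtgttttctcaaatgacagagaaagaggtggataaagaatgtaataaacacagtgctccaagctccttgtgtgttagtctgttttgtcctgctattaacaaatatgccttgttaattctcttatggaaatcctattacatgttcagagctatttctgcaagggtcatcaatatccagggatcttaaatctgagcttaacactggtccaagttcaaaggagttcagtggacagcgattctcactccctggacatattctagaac

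Expression was taken per length, as FPKM, to set the genes side by side. All 10 were among the 500 most abundant genes by mean FPKM over the 12 libraries. *Pdc* was highest at 1312 FPKM (rank 15), followed by *Guca1a* at 960 (rank 24), *Rcvrn* at 846 (rank 32) and *Guca1b* at 472 (rank 57). *Slc24a1* followed at 334, *Grk1* at 254, *Gnb5* at 248 and *Rgs9* at 218. The lowest were *Rgs9bp* at 93.9 FPKM and *Gucy2e* at 87.1, so the cyclase itself stood far below both of its activating proteins. Ranges over libraries overlapped between neighbours in this order in several places. *Guca1a* spanned 486 to 1373 FPKM and held the whole range of *Rcvrn* within it, and *Grk1*, *Gnb5* and *Rgs9* also overlapped. *Rgs9bp* was above *Gucy2e* in F0 C57BL/6J, at 103.7 ± 2.30 against 81.1 ± 1.87 FPKM (SD, n = 3), but below it in F0 Cast/EiJ, at 75.6 ± 1.75 against 91.9 ± 4.53.

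**Figure D1:**
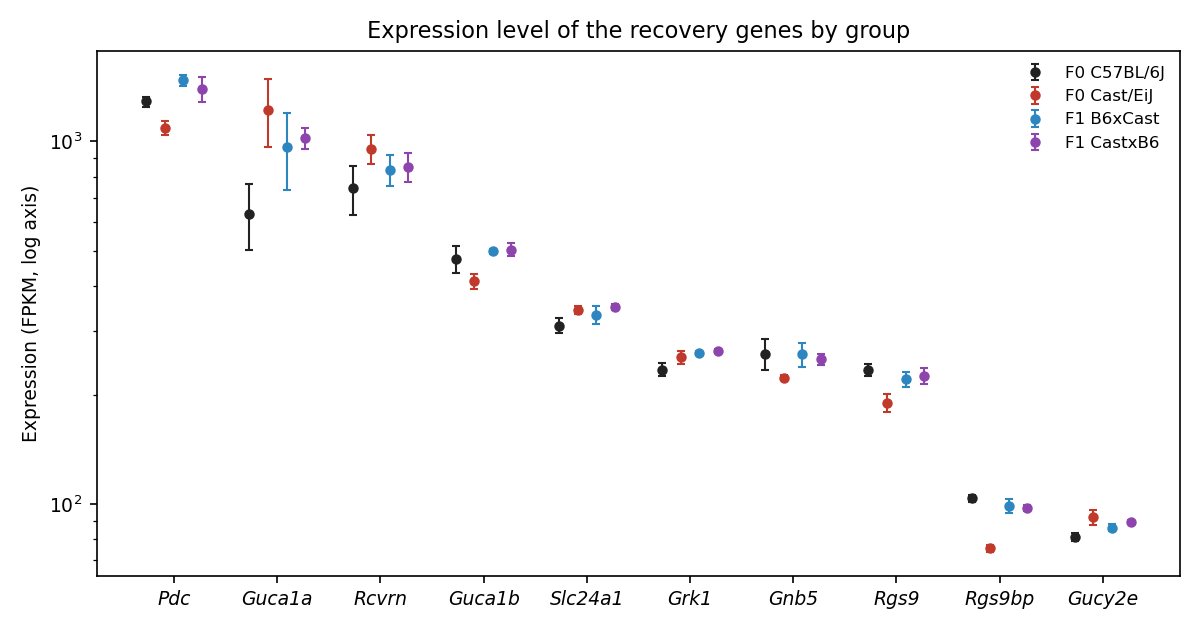
Expression of the 10 genes in FPKM (log axis), ordered by their mean over 12 libraries, with points at the mean of 3 libraries and bars of 1 SD for each of the 4 classes. *Pdc* lies highest and *Gucy2e* lowest by that mean, and *Rgs9bp* and *Gucy2e* change places between the F0 strains.

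The differences below were tested on count equivalents, the authors' normalized estimate of read pairs per gene, as log2 of the value plus 1 with limma. Each F0 library and each allele of an F1 library was scaled by the authors to a like total, so 1 allele is on the scale of 1 F0 library. Depth was given by unique hits, the read pairs assigned to a single gene and, in F1, to a single allele. They ranged from 8158534 to 12363291 per library, and F0 and F1 values are not on the same scale. F0 Cast/EiJ had 8158534 to 10078766 and F0 C57BL/6J 10363519 to 11888819, without overlap. Each of the 10 genes had at least 5209 allele-specific unique hits in every F1 library. No other gene shared exon bases with any of them in the GENCODE M1 annotation. *Rcvrn* lies inside the *Glp2r* locus on the opposite strand, and the libraries were not stranded, so reads from the introns of *Glp2r* at exons of *Rcvrn* could not be told apart from *Rcvrn*.

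The F0 strains were compared first, which asks how far the recovery genes differ between Cast/EiJ and C57BL/6J retinas. 5 of the 10 genes were called at an adjusted p under 0.05, against 33.8% of the 14452 autosomal genes tested. *Guca1a* and *Rcvrn* were higher in Cast/EiJ (17.2% of all genes tested were), and *Rgs9bp*, *Rgs9* and *Pdc* were lower (16.6% of all were). The 3 libraries of the strains did not overlap for 8 of the 10 genes, 4 in each direction, against 48.0% of the genes tested (25.3% with Cast/EiJ above, 22.7% with it below). The median log2 difference of the 10 genes was -0.03, beside 0.03 for all genes tested, with no direction over the group. Replicates were separate pools, and each p measures the spread between these pools.

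**Figure D2:**
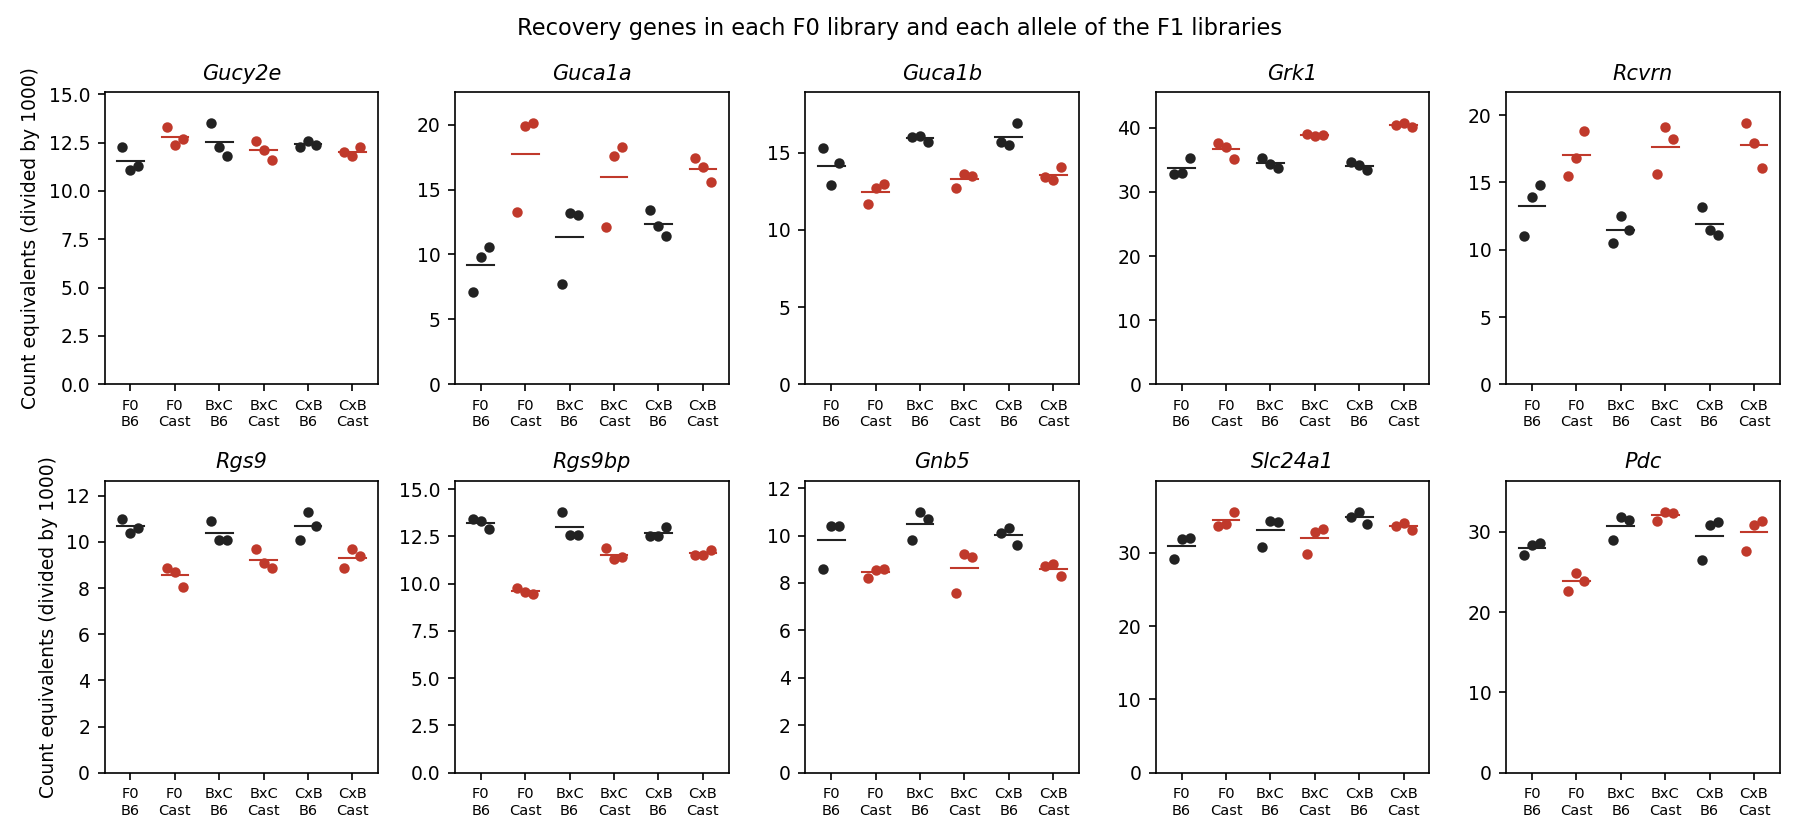
Count equivalents (divided by 1000, axis from 0) of each gene in each F0 library and each allele of the F1 libraries, in black for C57BL/6J and red for Cast/EiJ sequence, with replicates 1 to 3 from left to right in each column and lines at the mean of 3. BxC is F1 B6xCast and CxB is F1 CastxB6. *Guca1a* and *Rcvrn* are higher for Cast in F0 and F1, and *Rgs9bp* is lower in F0 Cast/EiJ than either Cast allele column in F1.

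The cyclase arm held the largest strain difference. *Gucy2e* (chr11:69031619-69050538 in NCBI37, minus strand) encodes guanylate cyclase 1 of the photoreceptors. Its count equivalents were 12300, 11100 and 11300 in F0 C57BL/6J and 13300, 12400 and 12700 in F0 Cast/EiJ. The strains were thus apart by a small step, with a log2 difference of 0.15 (SE 0.07, adjusted p = 0.141) and a 95% interval from -0.01 to 0.31, which did not pass. It passed with the deposited log expression weighted by its precision (0.18, adjusted p = 0.0139).

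*Guca1a* (chr17:47531509-47537533, minus strand) encodes GCAP1, which activates the cyclase at low calcium. It measured 7090, 9840 and 10600 in F0 C57BL/6J and 13300, 19900 and 20100 in F0 Cast/EiJ. Every Cast/EiJ library was above every C57BL/6J library, although replicate 1 was well below the others in both strains. The fold difference was 1.93, a log2 difference of 0.95 (SE 0.19, adjusted p = 0.00500). Without replicate 1 of both strains the log2 difference was 0.97 with an SE of 0.07. Without a filter on low values the call was lost (0.95, SE 0.26, adjusted p = 0.112). In that fit the values of the gene were the same, and the shared variance was estimated over all 34964 autosomal genes.

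*Guca1b* (chr17:47522342-47529916, plus strand) encodes GCAP2, the other activating protein, and lies tail to tail with *Guca1a* across a gap of 1592 bases. It measured 15300, 12900 and 14300 in F0 C57BL/6J and 11700, 12700 and 13000 in F0 Cast/EiJ. The strains overlapped, and the log2 difference of -0.18 (SE 0.08, adjusted p = 0.125) did not pass. The neighbours thus had point estimates of opposite sign, one called and the other not.

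In the pigment shutoff arm, *Grk1* (chr8:13405081-13421945, plus strand), the kinase of the visual pigment, was among the steadiest genes, with a spread within classes of 0.04 log2. It measured 32800, 32900 and 35300 in F0 C57BL/6J and 37700, 37000 and 35200 in F0 Cast/EiJ. The strains overlapped by 1 library each, and the log2 difference was 0.12 (SE 0.08, adjusted p = 0.256).

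*Rcvrn* (chr11:67508828-67516835, plus strand) encodes recoverin, which holds the kinase back at high calcium. It measured 11000, 13900 and 14800 in F0 C57BL/6J and 15500, 16800 and 18800 in F0 Cast/EiJ. No library overlapped, and the gene was 1.29-fold higher in Cast/EiJ, with a log2 difference of 0.37 (SE 0.12, adjusted p = 0.0416). The call stood near the threshold. It was lost without C57BL/6J replicate 1 (log2 difference 0.24, adjusted p = 0.0835) or 2 (0.41, adjusted p = 0.0716) and without Cast/EiJ replicate 2 (0.38, adjusted p = 0.101) or 3 (0.30, adjusted p = 0.140). TMM factors (0.34, adjusted p = 0.0518), the deposited log expression (0.37, adjusted p = 0.148, or 0.38, adjusted p = 0.0529 when weighted) and a fit without a filter (0.37, adjusted p = 0.328) also ended it. In all, 8 of 16 alternatives did.

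In the transducin shutoff complex, all 3 subunits had lower estimates in Cast/EiJ, and 2 of them were called. *Rgs9* (chr11:109086669-109159443, minus strand) encodes the GTPase-activating subunit. It measured 11000, 10400 and 10600 in F0 C57BL/6J and 8880, 8710 and 8040 in F0 Cast/EiJ. The strains were clearly apart, by -0.32 on the log2 scale (SE 0.07, adjusted p = 0.00686). The call was lost without a filter (adjusted p = 0.0685).

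*Rgs9bp* (chr7:36364017-36370601, minus strand) encodes R9AP, the membrane anchor of the complex. It measured 13400, 13300 and 12900 in F0 C57BL/6J and 9770, 9570 and 9460 in F0 Cast/EiJ. This was the most regular strain difference of the group, with 3 tight values on each side, a fold difference of 1.37 and a log2 difference of -0.46 (SE 0.06, adjusted p = 0.000607).

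*Gnb5* (chr9:75159202-75193678, plus strand) encodes the obligate beta subunit partner of RGS9 and is also used by other RGS proteins in inner retinal cells. It measured 8610, 10400 and 10400 in F0 C57BL/6J and 8210, 8540 and 8590 in F0 Cast/EiJ. All Cast/EiJ libraries were below all C57BL/6J libraries, with C57BL/6J replicate 1 close to them, and the log2 difference of -0.21 (SE 0.09, adjusted p = 0.0907) did not pass. Without that replicate it was -0.30 and passed (adjusted p = 0.0112). With all libraries it passed by edgeR (-0.24, adjusted p = 0.0425) and by DESeq2 (-0.23, adjusted p = 0.0470) on unique hits.

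*Slc24a1* (chr9:64770668-64799414, minus strand) encodes NCKX1, the calcium exchanger of the rod outer segment. It measured 29100, 31900 and 32000 in F0 C57BL/6J and 33700, 34000 and 35600 in F0 Cast/EiJ. The strains did not overlap, but the log2 difference of 0.15 (SE 0.08, adjusted p = 0.165) did not pass. With weighted log expression it passed (0.15, adjusted p = 0.0343).

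*Pdc* (chr1:152166547-152181035, plus strand) encodes phosducin. It measured 27100, 28400 and 28600 in F0 C57BL/6J and 22700, 24900 and 23900 in F0 Cast/EiJ. The Cast/EiJ libraries were the lower ones throughout, by -0.23 on the log2 scale (SE 0.07, adjusted p = 0.0377). This call was lost without C57BL/6J replicate 2 (log2 difference -0.23, adjusted p = 0.118) or 3 (-0.22, adjusted p = 0.101) and without Cast/EiJ replicate 1 (-0.20, adjusted p = 0.119), 2 (-0.27, adjusted p = 0.0599) or 3 (-0.24, adjusted p = 0.0998). It was kept only without C57BL/6J replicate 1 among the F0 libraries left out singly, and the deposited log expression ended it too (-0.24, adjusted p = 0.267, or 0.0781 when weighted), as did a fit without a filter (-0.23, adjusted p = 0.707).

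In the F1 hybrids both alleles share 1 nucleus and 1 library, so an allelic difference compares the sequences on a common background. 7 of the 10 genes were called, 3 with the Cast allele higher and 4 with it lower, against 47.0% of the 13414 genes tested (23.5% in each direction). In 9 of the 10 genes all 6 F1 libraries pointed the same way, against 42.0% of the genes tested. The median allelic difference of the 10 genes was -0.05, beside 0.00 for all genes tested. With each single library left out, 7 genes were called between the alleles (5487 to 6374 of all genes), against 3 to 5 between the strains (3498 to 4573 of all genes). The fit took 1 correlation between the alleles of a library for all genes (consensus 0.135). An SE below can thus hold the spread of levels between libraries as well as the spread of the allelic ratio.

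**Figure D3:**
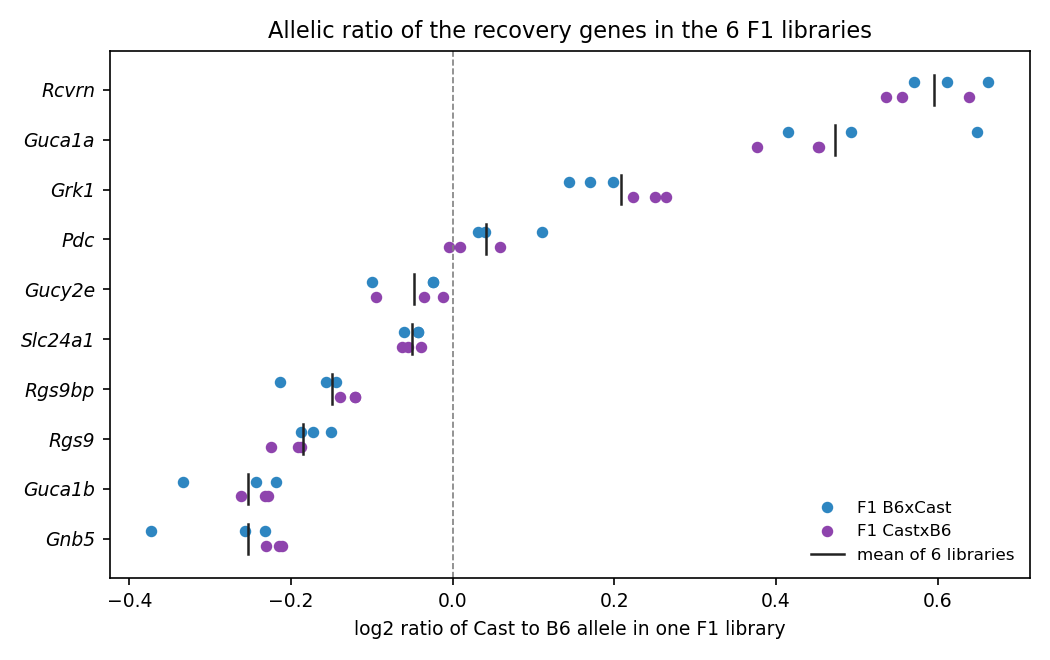
The log2 ratio of the Cast to the B6 allele in each of the 6 F1 libraries, 1 point per library, with black lines at the mean of 6. *Rcvrn*, *Guca1a* and *Grk1* lie above 0 in 6 of 6 libraries, *Pdc* lies around 0, and the other 6 genes lie below it in every library.

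*Rcvrn* had the largest allelic difference, 0.60 on the log2 scale (SE 0.07, adjusted p = 3.76e-06). Its B6 allele measured 10500, 12500 and 11500 in F1 B6xCast and 13200, 11500 and 11100 in F1 CastxB6. The Cast allele measured 15600, 19100 and 18200 and then 19400, 17900 and 16100. Every Cast value was above every B6 value. Of the allele-specific unique hits of the 6 libraries, 59.7% were on the Cast allele (Wilson 95% interval 59.3 to 60.1), and 58.8% to 60.8% in single libraries. The interval takes the pooled reads as independent and leaves out the spread between libraries, and the reads carried no molecular identifiers.

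*Guca1a* followed at 0.47 (SE 0.13, adjusted p = 0.00791), a 1.39-fold difference with 57.4% of the hits on the Cast allele. Its B6 allele measured 7720, 13200 and 13000 in F1 B6xCast and 13400, 12200 and 11400 in F1 CastxB6. The Cast allele measured 12100, 17600 and 18300 and then 17400, 16700 and 15600. The low library was the same for both alleles, F1 B6xCast replicate 1, and the ratio within libraries held between 0.38 and 0.65 while the levels moved. In F1 CastxB6 alone the difference was 0.43 (SE 0.19) and did not pass (adjusted p = 0.0961). The ratios of its 3 libraries were close, at 0.38, 0.45 and 0.45, and that SE can also hold the spread of levels between libraries.

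*Grk1* was called at 0.21 (SE 0.03, adjusted p = 2.06e-05). The B6 allele lay between 33400 and 35300 and the Cast allele between 38700 and 40700, with no overlap over 6 libraries. In F0 the same gene missed the threshold with an estimate of the same sign.

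The GTPase complex leaned to the B6 allele in all 3 subunits. *Gnb5* differed by -0.25 (SE 0.05, adjusted p = 0.000622), *Rgs9* by -0.19 (SE 0.04, adjusted p = 0.000563) and *Rgs9bp* by -0.15 (SE 0.03, adjusted p = 0.000477). The Cast shares of unique hits were 45.2%, 45.6% and 46.9%. *Guca1b* also leaned to the B6 allele, by -0.25 (SE 0.04, adjusted p = 6.70e-05), with B6 values from 15500 to 16900 and Cast values from 12700 to 14100. *Guca1a* and *Guca1b* were thus called in opposite directions on the same chromosome copies.

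For 3 genes the alleles were close. *Slc24a1* differed by -0.05 (SE 0.04, adjusted p = 0.287, 95% interval -0.13 to 0.03), and its ratio was the most even of the group, between -0.06 and -0.04 in all 6 libraries. The SD of that ratio was 0.01, so a small lean to the B6 allele was regular over libraries though not called. *Gucy2e* differed by -0.05 (SE 0.04, adjusted p = 0.295, 95% interval -0.12 to 0.03) and *Pdc* by 0.04 (SE 0.04, adjusted p = 0.466, 95% interval -0.05 to 0.13). The Cast allele of *Gucy2e* was lower in 6 of 6 libraries too, with ratios from -0.10 to -0.01. With weighted log expression *Gucy2e* was called (-0.06, adjusted p = 0.0264). The Cast shares of hits were 48.6%, 48.6% and 50.2%.

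The F0 difference was then set against the F1 allelic difference, which separates a difference that stays with the allele in *cis* from one that is lost when both alleles share a cell (*trans*). 4 genes were called in both comparisons, all 4 in the same direction: *Guca1a*, *Rcvrn*, *Rgs9* and *Rgs9bp*. Of the 13055 genes tested in both, 22.2% were called in both with the same direction. The difference between the differences was called for 2 of the 10 genes, both with the F0 difference below the allelic one, against 14.0% of the 13414 genes tested (5.64% with the F0 difference above and 8.31% with it below).

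**Figure D4:**
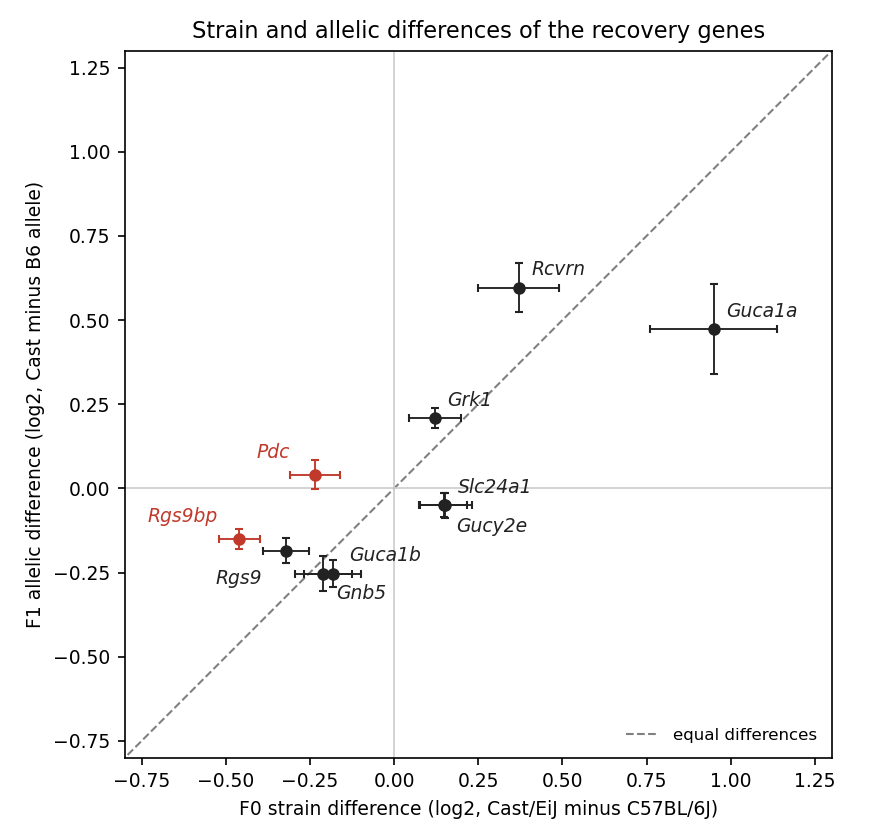
The F0 strain difference (horizontal, log2, Cast/EiJ minus C57BL/6J) against the F1 allelic difference (vertical, log2, Cast minus B6 allele), with bars of 1 SE and a dashed line of equal differences. *Rgs9bp* and *Pdc*, in red, lie left of the line and are called for the difference between the comparisons, and *Guca1a* lies farthest to the right with the longest bars.

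*Rgs9bp* showed the clearest gap. It differed by -0.46 between the strains and by -0.15 between the alleles, and the gap of -0.31 (SE 0.05, adjusted p = 0.000831) was called with each library left out in turn. In count equivalents, F0 Cast/EiJ held 9460 to 9770 while the Cast allele in F1 held 11300 to 11900. The B6 copies were alike in F0, at 12900 to 13400, and in F1, at 12500 to 13800. The F0 and F1 ranges of the Cast sequence did not overlap, while those of the B6 sequence did.

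*Pdc* differed by -0.23 between the strains and by 0.04 between the alleles. The gap of -0.28 (SE 0.08, adjusted p = 0.0263) was lost without C57BL/6J replicate 2 (-0.27, adjusted p = 0.0646) or 3 (-0.26, adjusted p = 0.0655) and without Cast/EiJ replicate 1 (-0.24, adjusted p = 0.0770). It was also lost with the deposited log expression (-0.28, adjusted p = 0.118) and with F1 CastxB6 alone (-0.26, adjusted p = 0.0816). The mean of both alleles was 31417 ± 1102 in F1 B6xCast and 29733 ± 2335 in F1 CastxB6 (SD, n = 3), each above the means of both F0 strains, 28033 ± 814 and 23833 ± 1102. F1 CastxB6 replicate 1, at 27050, lay just below the range of F0 C57BL/6J, while the other 5 F1 libraries, at 30150 to 32150, lay above both strains. The F1 libraries were read on 1 more lane than the F0 libraries, and the part of the added lane in this level was not tested.

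*Gucy2e* and *Slc24a1* had positive F0 estimates and slightly negative allelic ones, with gaps of 0.20 (SE 0.07, adjusted p = 0.0590) and 0.20 (SE 0.07, adjusted p = 0.0560) that just missed the threshold. Each passed in several alternatives, *Gucy2e* in 5 of 25 and *Slc24a1* in 6 of 25. *Gucy2e* passed with the deposited log expression (0.24, adjusted p = 0.0158, or 0.000611 when weighted) and without C57BL/6J replicate 1 (0.24, adjusted p = 0.0252). *Slc24a1* passed with weighted log expression (0.20, adjusted p = 0.0128), without F1 B6xCast replicate 1 (0.20, adjusted p = 0.0290), with library as a fixed effect (0.20, adjusted p = 0.0426) and over genes with a mean of 50 unique hits (0.20, adjusted p = 0.0475). For *Guca1a* the F0 difference was 0.95 and the allelic one 0.47, with a gap of 0.48 (SE 0.24, adjusted p = 0.213) and a wide interval from -0.04 to 0.99. For *Rcvrn* the allelic difference was the larger, with a gap of -0.22 (SE 0.13, adjusted p = 0.289). The gaps of *Rgs9* (-0.14), *Grk1* (-0.09), *Guca1b* (0.07) and *Gnb5* (0.04) did not pass either, and that of *Gnb5* changed sign to -0.05 without C57BL/6J replicate 1.

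The libraries numbered 1 stood apart in 3 classes, F0 C57BL/6J, F0 Cast/EiJ and F1 B6xCast, and the genes of the group followed this in opposite ways. *Guca1a* had a spread within classes of 0.30 log2 (SD), at the percentile 97.1 of 2909 autosomal genes with at least 1000 count equivalents, whose median spread was 0.09. *Rcvrn* followed at 0.16 (percentile 85.3), while *Grk1* and *Rgs9bp*, at 0.04 each, were among the steadiest genes (percentiles 3.95 and 5.57). In replicate 1 *Guca1a* was lower than its class mean by -0.34, -0.39 and -0.43 log2 in the 3 classes, but in F1 CastxB6 replicate 1 it was 0.09 above.

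5 genes, *Guca1a*, *Rcvrn*, *Gnb5*, *Slc24a1* and *Pdc*, were lowest in replicate 1 of all 3 classes, and 3 genes, *Gucy2e*, *Rgs9* and *Rgs9bp*, were highest in it. Of the 2909 genes, 23.2% were lowest and 21.3% highest in this way. Deviations from the class means over all genes correlated between these replicates at r = 0.33, 0.31 and 0.29 for the pairs of classes. Across the 12 libraries the deviations of *Guca1a* went with those of *Slc24a1* (Pearson's r 0.88) and *Rcvrn* (0.87) and against those of *Gucy2e* (-0.92), which are descriptions over libraries that share these 3 replicates. The 5 genes lowest in replicate 1 have 871 to 5213 exonic bases and the 3 highest have 6390 to 9197. Over the 2909 genes, the median was 4534 exonic bases in those lowest and 5399 in those highest in replicate 1, beside 5400 for all with a known length. The part of transcript length in the pattern was not tested.

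**Figure D5:**
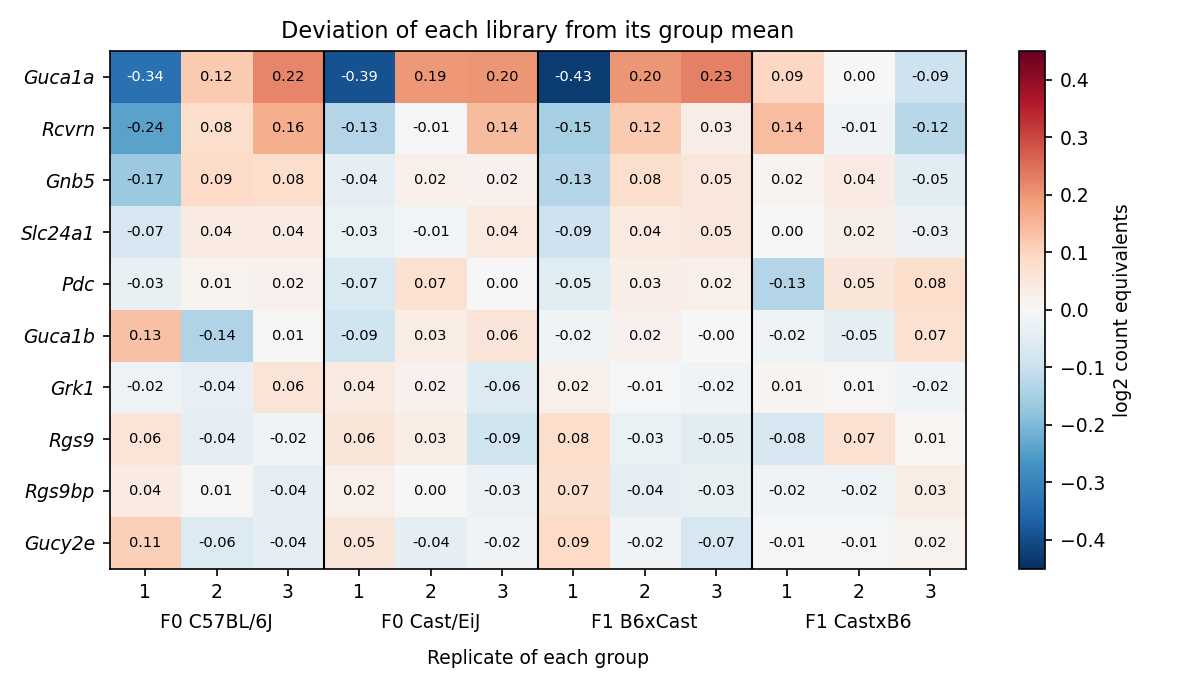
Deviation of each library from the mean of its class in log2 count equivalents, with genes in rows, libraries in columns and the value printed in each cell. Blue cells of *Guca1a*, *Rcvrn* and *Gnb5* stand in replicate 1 of 3 classes, where *Gucy2e* is red, and F1 CastxB6 lacks the pattern.

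With these 3 libraries left out together, a choice made after seeing the data, 6 of the 10 genes were called between the strains, 7 between the alleles, and 4 for the gap between the comparisons. Over all genes the same fit called 4626, 6529 and 1731, beside 4887, 6305 and 1872 with all libraries. In that fit the gap was called for *Guca1a* (0.53, SE 0.08, adjusted p = 0.000843), *Rgs9bp* (-0.32, adjusted p = 0.000426), *Gucy2e* (0.20, adjusted p = 0.0152) and *Slc24a1* (0.17, adjusted p = 0.0220), and no longer for *Pdc* (-0.25, adjusted p = 0.0659). The added call between the strains was *Gnb5* (-0.28, adjusted p = 0.0125).

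The reciprocal crosses tested whether the parent that gave an allele mattered. No recovery gene was called for parent of origin by limma, or by edgeR on unique hits, against 0.492% of the genes tested, and none had an unadjusted p under 0.05. The maternal minus paternal estimates lay between -0.04 and 0.05 log2, and the lowest unadjusted p from the limma fit was 0.225 (*Grk1*, -0.04). They were highest for *Guca1a* (0.05), *Pdc* (0.02), *Rcvrn* (0.02) and *Rgs9* (0.02), and were -0.03 for *Gnb5*, -0.02 for *Rgs9bp*, -0.01 for *Guca1b*, -0.00098 for *Gucy2e* and 0.0016 for *Slc24a1*. By single libraries, the log2 Cast to B6 ratio of *Grk1* was 0.14 to 0.20 in F1 B6xCast and 0.22 to 0.26 in F1 CastxB6. The ratios of the crosses did not overlap for *Grk1*, *Gnb5* and *Rgs9bp*, and overlapped for the other genes. The share of all genes without such overlap was not counted, and the SE of the fit can also hold the spread of levels between libraries. Total expression of F1 CastxB6 and F1 B6xCast was compared in the same way, and 0 of the 10 genes were called by limma or by edgeR, against 0.0401% of 14967 genes tested, with 0 at an unadjusted p under 0.05. The estimates lay between -0.08 (*Pdc*) and 0.11 (*Guca1a*), and the intervals of the 10 genes reached from -0.30 to 0.52 log2. In between were *Slc24a1* (0.07), *Rgs9* (0.03), *Rcvrn* (0.03), *Grk1* (0.02), *Guca1b* (0.02), *Gucy2e* (-0.0084), *Rgs9bp* (-0.02) and *Gnb5* (-0.04).

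Other genes of recovery and calcium handling in the retina were set beside the group. Of 17 listed, 15 were tested between the F0 strains, 3 were higher in Cast/EiJ and 2 lower, with a median log2 difference of -0.12. *Sag*, the rod arrestin that caps the phosphorylated pigment, had the largest difference, at 1.18 (SE 0.09, adjusted p = 2.31e-05) in F0 and 0.92 between the alleles. Its F0 call was lost without a filter (1.18, SE 0.93, adjusted p = 0.686), where its values were the same and the variance was shared over all autosomal genes. *Cabp4*, a calcium-binding protein of the photoreceptor synapse, was higher by 0.67 (SE 0.06) in F0 and by 0.49 between the alleles. *Pdcl*, the phosducin-like protein, was lower by -0.42 (SE 0.07) in F0, and *Kcnv2*, a potassium channel subunit of photoreceptors, by -0.32 (SE 0.08), a call lost without Cast/EiJ replicate 2 (-0.29, adjusted p = 0.0519) and without a filter (-0.32, adjusted p = 0.104). Between the alleles 5 of 14 tested were called, 3 with Cast higher, against 47.0% of all genes tested (23.5% in each direction).

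The activation cascade, against which recovery works, had 3 of 17 tested genes higher and 3 lower in Cast/EiJ. *Gngt1*, the gamma subunit of rod transducin, was higher by 1.04 (SE 0.11, adjusted p = 0.000134), and *Cngb3*, a cone channel subunit, by 0.52 (SE 0.09). The lower genes were led by the cone genes *Cnga3*, a channel subunit (-1.21, SE 0.12), and *Opn1sw*, the short-wave opsin (-0.79, SE 0.08). Of 8 rod transcription factors, *Nr2e3* (0.35, SE 0.08) and *Esrrb* (0.26, SE 0.08) were higher in Cast/EiJ and *Rorb* was lower (-0.49, SE 0.10), while *Crx*, *Nrl* and the other 3 did not pass. The call of *Esrrb* was lost without any single F0 library but Cast/EiJ replicate 1 (0.21 to 0.29, adjusted p = 0.0559 to 0.0934), and with the deposited log expression (0.22, adjusted p = 0.0821). That of *Nr2e3* was lost with log expression (0.31, adjusted p = 0.0517), and without a filter the calls of *Nr2e3* (adjusted p = 0.0923), *Esrrb* (0.158) and *Rorb* (0.0749) were all lost. Members of these lists were called at 5 of 15, 6 of 17 and 3 of 8, beside 33.8% of all genes tested.

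Cell type markers bear on a level measured in whole retina. All 7 rod markers had a mean of 203 FPKM or more over the 12 libraries, and 2 of the 7 were called higher in Cast/EiJ (*Sag* and *Nr2e3*). *Sag* was at 1657 ± 94.8 FPKM in F0 C57BL/6J and 3792 ± 165 in F0 Cast/EiJ (SD, n = 3). Cone markers summed to 335 to 406 FPKM in F0 C57BL/6J and 241 to 297 in F0 Cast/EiJ, with 3 of 5 tested called lower. Ganglion markers were called lower for 3 of 6, and amacrine markers higher for 3 of 6. Bipolar markers had 1 called in each direction of 7, Mueller glia markers 1 higher and 2 lower of 6, and horizontal cell markers 1 lower of 4. Of all genes tested, 17.2% were called higher and 16.6% lower.

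Markers of pigment epithelium, microglia, blood and lens had low sums. Those of retinal pigment epithelium summed to 8.91 to 10.9 FPKM in F0 C57BL/6J and 2.61 to 3.80 in F0 Cast/EiJ, those of microglia to 6.85 to 7.57 and 3.08 to 3.86, those of blood to 47.2 to 64.5 and 35.1 to 56.3, and those of lens to 0.878 to 13.3 and 4.96 to 13.4. 2 of 4 tested genes of pigment epithelium, 3 of 4 of microglia and 2 of 3 of blood were called lower in Cast/EiJ, against 16.6% of all genes tested. The blood marker *Hbb-b2*, one of those called, was near 0 in F0 Cast/EiJ. Between the F1 alleles it went the other way, with the Cast allele higher by 1.22 (adjusted p = 0.000557), and the cause was not tested. *Hba-a1*, another blood marker, had a higher estimate in F0 Cast/EiJ (0.52, adjusted p = 0.0512) that did not pass. The part of any cell type in the strain differences of the 10 genes was not tested.

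For each gene, the autosomal gene most like it over the 12 libraries was found among 10239 candidates by Pearson's r of log2 levels. The highest were *Ccna2* with *Rgs9bp* (r 0.99), *Pex5l* with *Rgs9* (0.98), *Cst3* with *Guca1a* (0.98) and *Dda1* with *Gucy2e* (0.96). The others were *Cav2* with *Gnb5* (0.96), *Exosc1* with *Guca1b* (0.96), *Cntn1* with *Slc24a1* (0.95), *Eif5a2* with *Pdc* (0.95), *Dynll1* with *Rcvrn* (0.94) and *Zfp606* with *Grk1* (0.94). These are the best of many candidates over libraries that share strains and replicates.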

How the data were processed

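Retinal mRNA of 12 libraries (3 per class) was sequenced as paired reads of 101 bp. The authors trimmed reads with Trim Galore 0.2.6, mapped them with Bowtie 0.12.9 to strain-specific or hybrid transcriptomes on NCBI37 (mm9, Ensembl annotation) and estimated expression with MMSEQ. The signal values used here, the count equivalents, were normalized by the authors and deposited to 3 significant digits, and are not whole numbers. The natural log of expression was deposited by the authors, and its exponential was used as FPKM. The posterior SD deposited by the authors beside it, a score of precision, served as a weight in an alternative. Unique hits are a count, deposited by the authors without normalization. The authors' own comparisons (posterior probabilities and Bayes factors) were not used, and 36 columns of per-sample values in all were left out.

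From these values, log2 of the count equivalents plus 1 was fitted with limma 3.58.1 (R 4.3.3; empirical Bayes with trend) over all autosomal genes, with Benjamini-Hochberg adjustment and calls at an adjusted p under 0.05. F0 strains and F1 totals were compared over genes that reached 10 count equivalents in 3 or more of the 6 libraries compared. A model of F0 strains and F1 alleles, blocked on F1 library (duplicateCorrelation, consensus 0.135), covered 13414 genes whose allele-specific unique hits averaged 10 or more per hybrid library, and gave the allelic difference, the gap between the F0 and the allelic difference, and the parent-of-origin difference. FPKM and within-class values were described without tests. Alternatives (pseudocounts, TMM factors, filters, deposited log expression, edgeR 4.0.16 and DESeq2 1.42.0 on unique hits, a replicate block, libraries left out singly or together) were tried. The fits were tested on simulated data.

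Exons were read from GENCODE M1 (NCBI37) and promoters from RefSeq (GRCm38.p6). The count equivalents had column totals of 12648792 to 13843914. Every one of the 10 genes was named in every comparison, and from each of 3 lists (other recovery genes, the activation cascade, rod transcription factors) the 2 called genes with the largest F0 difference in each direction. Of the cell type markers, counts were given, with summed FPKM for some lists, and the called rod markers *Sag* and *Nr2e3* were named. *Hbb-b2* and *Hba-a1* were named after their values were seen. For each of the 10, the gene most like it was also named. The members and lists were chosen with earlier results of these data known. The level of 1 listed gene is not reported here.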

Additional observations from a re-analysis of the deposited data

Results flagged for a closer look

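Among the recovery genes, 2 differed more between the F0 strains than between the alleles of the F1 hybrids, by the test of the difference itself in limma. *Rgs9bp* had an F0 difference that was -0.31 log2 from its allelic difference (SE 0.05, adjusted p = 0.000831), with the Cast allele lower in 6 of 6 F1 libraries, and over the alternatives tried this value lay between -0.34 and -0.29. *Pdc* had a gap of -0.28 (SE 0.08, adjusted p = 0.0263), with the Cast allele higher in 5 of 6 F1 libraries, and it lay between -0.31 and -0.24 over the alternatives, with the call lost in 6 of 25 of them. Single outlying libraries were not tested, and each class had only 3 libraries.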

How the results depend on the processing

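Over the alternatives tried, 660 values of single recovery genes were recomputed, and 610 kept their direction and their side of the threshold, 25 lost the call, 22 gained one and 3 changed sign. All 3 were the gap of *Gnb5* between the F0 and the allelic difference, from 0.04 to -0.0018 with edgeR on unique hits, -0.047 without C57BL/6J replicate 1 (-0.047 to 0.089 with single libraries left out) and -0.048 without the 3 libraries numbered 1; it was called in none of them and the cause was not tested. Of the 10 genes, 5 were called between the strains, but 1 without a filter on low values (3161 of all genes, against 4887; *Rgs9bp* kept its call, and *Guca1a* and *Rgs9* had adjusted p = 0.112 and 0.0685), 3 with the deposited log expression (4061 of all genes), and 3 to 5 (3498 to 4573 of all genes) with single libraries left out. Between the alleles 7 were called with each library left out (5487 to 6374 of all genes). The gap between the comparisons was called for 2 (1872 of all genes), but for 4 with weighted log expression (1780), 4 without the 3 libraries numbered 1 (1731), 1 with F1 CastxB6 alone (1367) and 1 to 3 with single libraries left out (1460 to 2032 of all genes). Parent of origin called 66 of all genes, but 38 with a mean of 50 unique hits, 32 with weighted log expression, 40 with edgeR and 56 to 77 with single libraries left out. The total of the crosses called 6 of all genes, but 24 without a filter and 5 to 12 (12 without F1 B6xCast replicate 1) with libraries left out, and 0 of the 10 in each. Same-numbered F0 libraries deviated together at r of 0.03 to 0.33, and 3 of 6 correlated best with their own number. Same-numbered libraries of F0 and F1 B6xCast gave 0.04 to 0.31. Those of F0 and F1 CastxB6 gave -0.10 to 0.03, and those of the crosses -0.12 to -0.04. The numbers were thus not taken to pair samples over all classes, although F0 and F1 B6xCast deviated together. With the replicate block, 8 of the 10 genes were called between the strains (6376 of all genes), 7 between the alleles (6496) and 4 for the gap (2037). The added calls were *Gucy2e* (adjusted p = 0.0329), *Gnb5* (0.0175) and *Slc24a1* (0.0460) between the strains, and *Gucy2e* (0.0273) and *Slc24a1* (0.0218) for the gap.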
